A study of Homo sapiens with 2 samples.

Results

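Peaks of SOX9 binding in HT-29 cells were examined where the input DNA of the same cells was deepest. The input signal was summed in fixed 1-Mb windows of each autosome, starting at position 1, and each sum was divided by the median of the 2734 autosomal windows with input, which gives the relative input of a window. The members were chosen by these input values alone: a SOX9 peak was a member when its summit lay in a window with a relative input of at least 1.5. The rule took 2906 of the 17847 deposited peaks (16.3%), or 16.6% of the 17479 autosomal peaks (95% Wilson interval 16.1% to 17.2%). The members lay in 220 high-input windows on 13 chromosomes, which were 8.05% of all windows, and 218 of these windows held at least 1 peak.

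The study mapped SOX9 by ChIP-seq in HT-29, an established human colorectal adenocarcinoma line, to find its binding sites in colorectal cancer cells. One library was made with a SOX9 antibody (Millipore AB5535) and 1 from input DNA, both from formaldehyde-fixed cells of the same line, so no value has a replicate error and no test between the libraries was possible. The labels give DMEM with serum as the medium, whereas the methods give McCoy's 5A. Each library held 12320108 tags after the authors downsampled the input, and the median window held an input equal to 4274 tags. All intervals given below cover counting error only, and peaks or windows of 1 library are not replicates.

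SOX9 is a transcription factor of the SOX family that binds DNA through an HMG box, and in the intestine it is known from the crypt epithelium and from colorectal tumours. The number of input reads over a region follows, among other things, how many copies of that region the cells carry, and colorectal cancer lines are known for gains of whole chromosome arms. Both libraries were drawn from the same genome, so an extra DNA copy adds reads to the SOX9 library as well as to the input. No separate measurement of DNA copy number was analysed here, so the windows are called high-input. Because the input chose the members, input values are given as a description, and so are measures that contain the input.

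Sequences of the members with many tags for each motif are shown first, because they carry the motifs described below. Each run holds 30 bases of the hg19 reference centred on the motif, 5′ to 3′ on the strand of the motif, with the motif in capitals. Motif 1 is CCAAT preceded by 2 purines and followed by C or G and then a purine, the preferred site of NF-Y, a histone-fold activator of many promoters. It is shown for AP2A1 (chr19:50270106-50270135, plus strand, 11 bp from the summit) and HNRNPUL1 (chr19:41770158-41770187, minus strand). CCGGAA, the core of sites bound by ETS factors, is shown for PIP4K2B (chr17:36956180-36956209, plus strand), whose summit had no CCAAT within 100 bp. Motif 2, the SOX9 consensus, is 2 bases that are A or T, then CAA, then A or T, then G. It is shown for strongly tagged members more than 1 kb from an annotated start, near PELATON (chr20:48859770-48859799, minus strand) and near ZNRF3-AS1 (chr22:29426159-29426188, plus strand). TGACTCA, the site of AP-1, is shown for an intronic member of CDC42BPG (chr11:64610665-64610694, minus strand). Relative to the summit, the motifs of HNRNPUL1, PIP4K2B, PELATON, ZNRF3-AS1 and CDC42BPG lay at -47, -80, -7, -23 and -95 bp.
AP2A1: tttgcttggcGGCCAATGAgagaggaagtg
HNRNPUL1: cccggaaacctAGCCAATCAgagcgccgtt
PIP4K2B: gatgccaccgctCCGGAAgggaaggaggga
PELATON: aacgtgggcccgAACAATGggcctttgtgc
ZNRF3-AS1: tcaggtgttaaAACAAAGaggatcattgtg
CDC42BPG: ctcaaagggctgTGACTCAttcctctcctg

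The high-input windows were not scattered evenly but lay on a limited set of chromosome arms. On 20q, 23 of 33 windows passed the threshold and the median relative input was 1.65. On 19q it was 13 of 31 windows, with a median of 1.46, and on 13q it was 37 of 96, with a median of 1.38. The arms 15q, 11p, 11q, 7q and 3q had medians of 1.32, 1.27, 1.24, 1.24 and 1.19, and between 19.2% and 25.3% of their windows passed. On 8q the median was only 1.09, yet 28 of 99 windows passed, and these 28 formed 1 unbroken run. No window of chromosomes 1, 2, 4, 6, 9, 10, 14, 16 or 21 reached the threshold. By members, chromosome 11 led with 503, followed by chromosomes 20 (389), 19 (388), 13 (368), 15 (291), 7 (273), 3 (227), 8 (189) and 17 (124), and chromosomes 18, 5, 22 and 12 held 46, 45, 34 and 29.

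**Figure D1:**
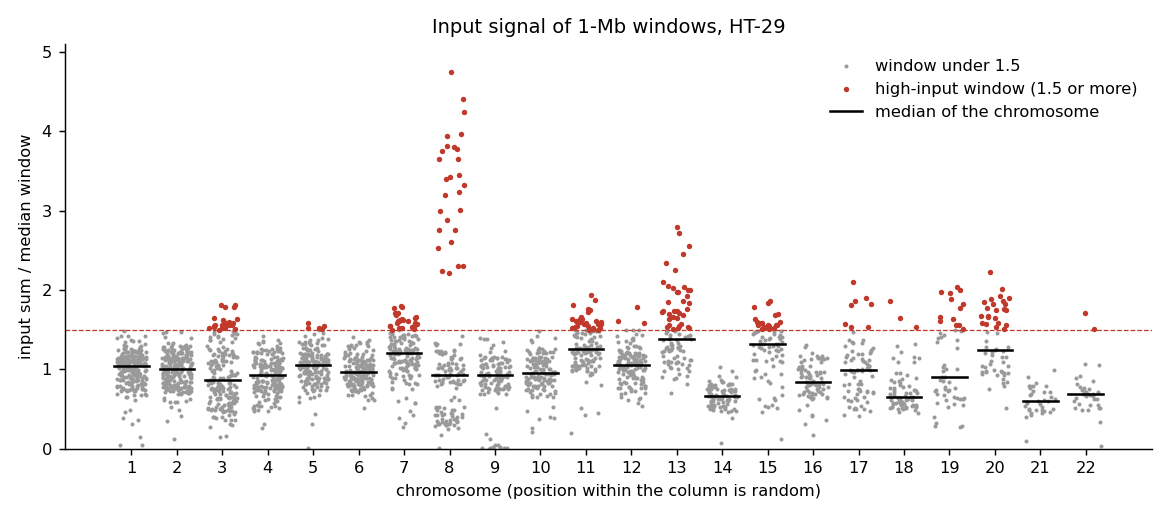
Relative input (input sum of a 1-Mb window divided by the median window, y axis) of the windows of each autosome (x axis, points spread at random within a column), with high-input windows in red and the median of each chromosome as a bar. Chromosome 8 holds the windows furthest from the rest, up to 4.75, next to windows far below 1 from its short arm.

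The high relative input did not rest on single bins of extreme signal. With bins capped at 7 extended tags, 218 windows passed, and all 218 were among the 220. In all 220 windows the number of bins with any input was above that of the median window. Both checks used the input that chose the windows, and they do not show that the excess spanned a whole window. The autosomal peak with most tags, on chromosome 6 with 2018 tags and an input signal of up to 127 extended tags per bin, lay in a window with a relative input of only 0.518 and was no member.

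At the threshold the windows formed a continuum. The windows just inside it were 120 to 121 Mb of chromosome 11, with a relative input of 1.501 and 9 peaks, and 15 to 16 Mb of the same chromosome, with 1.501 and 7 peaks. Just outside were 87 to 88 Mb of chromosome 7 (1.499, 10 peaks) and 89 to 90 Mb of chromosome 12 (1.495, 15 peaks). Peaks in windows of 1.5 to 1.6 numbered 978, with a median of 57 tags (55 to 60) and a fold enrichment of 9.34 (9.09 to 9.57). Those in windows of 1.4 to 1.5 numbered 1145, with a median of 54 tags (51 to 57) and a fold enrichment of 9.69 (9.47 to 10.04). The intervals of tags and of fold enrichment on both sides of the threshold overlapped. Those of position and of 1 motif did not: 53.4% of the peaks just inside lay within 1 kb of an annotated start (50.2% to 56.5%), against 46.0% just outside (43.2% to 48.9%), and TGACTCA lay near 9.61% of summits just inside (7.92% to 11.6%), against 16.8% just outside (14.7% to 19%).

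Adjacent high-input windows merged into 86 blocks, of which 43 were single windows. The 44 blocks with 20 or more members held 2390 of the members, and the 11 blocks of 5 or more windows held 1234.

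The largest block was a run of 28 windows of 8q, from 115 to 143 Mb, with a median relative input of 3.36 and a range of 2.22 to 4.75. It held 189 members, 6.50% of all, but 12.7% of all members' SOX9 tags and 7 of the 20 members with most tags. The strongest lay in an intron of CASC19, a long noncoding RNA gene, with 820 tags and a SOX9 signal of up to 146 extended tags per bin against an input of up to 16. TRIB1, which encodes a pseudokinase of the Tribbles family, had a peak at -111 bp from a start with 592 tags and a signal of 113 against 14. MYC, the proto-oncogene for a basic helix-loop-helix factor, had a wide peak around its start, from 128745999 to 128752016, with 587 tags but a signal of only 53 against 13 and a fold enrichment of 8.19. The other 4 of the 7 were LRATD2 (577 tags), SNTB1, which encodes a syntrophin (560), ST3GAL1-DT beside the sialyltransferase gene ST3GAL1 (545), and the noncoding RNA gene CCAT2 (543). At CCAT2 the signal was 197 against 14, the highest SOX9 signal of the block, and its fold enrichment of 25.3 was just below the block's maximum of 25.4. Of the 189 summits, 115 lay outside protein-coding genes, a count that has no share over all autosomal peaks beside it here. Summits in no annotated gene of any kind were 33.33% of the block's members and 34.17% of all autosomal peaks. A place outside all annotated genes was thus not particular to the block. Only 32.3% of the block's members lay within 1 kb of a start (26.0% to 39.2%). More than 10 kb away lay 47.6% of them (40.6% to 54.7%), against 22.96% of all autosomal peaks. In the high-input windows of 13q this share was 41.3% (36.4% to 46.4%), with 36.1% within 1 kb of a start. In the other windows of 13q the share beyond 10 kb was 40.1%. A large share far from starts was thus not particular to the 8q block. In the rest of 8q it was close to that of all autosomal peaks, and in the high-input windows of 19q it was 5.93%.

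On 13q the block of 24 to 36 Mb had a median relative input of 2.18 (1.67 to 2.79) over 12 windows, the highest of the 86 blocks after that of 8q, and held 96 members. Its strongest member lay in an intergenic region nearest to LINC00398, with 374 tags and a signal of 221 against 13. POLR1D, which encodes a subunit shared by RNA polymerases I and III, had 331 tags and a signal of 74 against 14, and HSPH1, a heat shock protein gene, had 275 tags and a signal of 52 against 18. Both of these promoter peaks held Motif 1. The block of 20 to 23 Mb (median 1.98, 42 members) was led by promoter peaks beside ZMYM5 (290 tags) and at ZMYM2 (245 tags), a pair of neighbouring zinc finger genes, and both peaks held Motif 1. The block of 73 to 77 Mb (median 1.90, 58 members) had 10 protein-coding genes, and 22.4% of its members lay within 1 kb of a start. Motif 2 was held by 39.7% of its members (28.1% to 52.5%), beside 20.5% of all autosomal peaks. The share was 31.7% in the other windows of 13q and 34.8% in non-member autosomal peaks more than 1 kb from a start. The leading members of the block lay at the start of a noncoding RNA gene beside UCHL3, which encodes a ubiquitin hydrolase (312 tags, 157 against 8), and at COMMD6 (242 tags, 131 against 7). Farther along the arm, ING1, a tumour suppressor gene of the PHD finger class, had peaks of 224 and 200 tags at separate starts in the block of 110 to 112 Mb.

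Most of 20q was high-input. The block of 30 to 38 Mb (8 windows, median 1.84, 129 members) was led by RPN2, which encodes a subunit of the oligosaccharyltransferase, with 346 tags and a signal of 133 against 5. RALY, an RNA-binding protein gene, followed with 269 tags, and the proto-oncogene SRC with 230. The block of 42 to 51 Mb (9 windows, median 1.75, 137 members) was led by promoter peaks of the regulators ZNF335 (381 tags, 168 against 8) and ZMYND8 (333 tags, 56 against 12). Next came the intergenic site near PELATON shown above, with 318 tags and a signal of 183 against 9. PFDN4, a prefoldin gene, led the single window of 52 to 53 Mb with 336 tags and a signal of 192 against 8. In the block of 60 to 63 Mb (median 1.67, 70 members), PPDPF, the kinase gene PTK6 and the proteasome gene PSMA7 had 262, 215 and 214 tags.

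The blocks of 19q were dense in members. The block of 44 to 52 Mb (8 windows, median 1.80, 1.56 to 2.04) held 253 members, 31.6 per Mb, and the block of 38 to 43 Mb (5 windows, median 1.66) held 135, or 27.0 per Mb. AP2A1, which encodes a subunit of the AP-2 clathrin adaptor, had 635 tags and a signal of 159 against 9, with Motif 1 at the summit. TBC1D17, a gene for a Rab GTPase-activating protein, had 600 tags and a signal of 173 against 9. PAFAH1B3, which encodes a catalytic subunit of a platelet-activating factor acetylhydrolase, had 612 tags and the highest SOX9 signal of all members, 229 against 9. Of the 20 members with most tags, 11 lay on chromosome 19, among them the genes of the RNA-binding proteins HNRNPUL1 (488 tags) and HNRNPL (478), the arginine methyltransferase PRMT1 (480), the transcriptional repressor CIC (452), the RNA polymerase I subunit POLR1G (442) and the actin regulator VASP (463). At PPP5D1P, whose start lies beside that of the calmodulin gene CALM3, the peak had 473 tags.

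Chromosome 11 had many blocks near the threshold. The block of 63 to 67 Mb (median 1.59) held 138 members, 34.5 per Mb, and 78.3% of them lay within 1 kb of a start (70.7% to 84.3%). SYVN1, which encodes an E3 ligase of the endoplasmic reticulum, led it with 432 tags, followed by STIP1, a co-chaperone of HSP70 and HSP90, with 403 tags and a signal of 175 against 8. PRDM10, a zinc finger gene at 128 to 130 Mb, had 614 tags and a signal of 166 against 10. EED, a core subunit of Polycomb repressive complex 2, had 317 tags and a signal of 162 against 6. BMAL1, a core factor of the circadian clock, had 210 tags, a fold enrichment of 58.5 and Motif 1. In the imprinted region at 2 to 3 Mb, KCNQ1OT1 and PHLDA2 had 211 and 215 tags, and a distal member nearest to MIR4686 had 262. BCL9L, a coactivator of beta-catenin, had intronic members of 244 and 179 tags, and the ETS factor gene EHF had a member of 209 tags at -20455 bp from its start.

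The remaining members lay on other chromosomes. On chromosome 17 the block of 35 to 37 Mb had a median relative input of 2.0, and PIP4K2B, a lipid kinase gene, and MLLT6 had members of 435 and 339 tags. On chromosome 15, PPIB, which encodes cyclophilin B, had 354 tags and a signal of 217 against 9, and IQCH had 325 tags and a signal of 228 against 7. On 7q, PRKAG2, a subunit gene of the AMP-activated kinase, had 238 tags, while the chloride channel gene CFTR had an intronic member of 145 tags and CLDN3, a tight junction gene, a promoter peak of 110. On 3q, PRKCI, the gene of an atypical protein kinase C, had 358 tags and a signal of 169 against 10, GATA2, a zinc finger factor gene, had 280 tags, and RNF13, a ubiquitin ligase gene, had 220. The pair MYL12A and MYL12B of chromosome 18, which encode myosin light chains, had 265 tags at the first and 270 at MYL12-AS1 beside the second. BHLHE41, a repressor of the clock, led on chromosome 12 with 230 tags. On chromosome 5 the block of 73 to 74 Mb had 23 members, 3 of them within 1 kb of a start, with 133 and 132 tags in introns of LINC01331 and LINC01332 and 123 tags at ENC1.

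Outside the peak intervals the SOX9 library followed the input window by window. Over the 2694 windows with at least 500 kb of known bases, Pearson's r between both signals was 0.984, and over the 220 high-input windows it was 0.981. These are correlations across windows of 1 pair of libraries, which share the genome, the mappability and the base composition of each window. In the high-input windows together, the SOX9 signal was 0.95 times the input signal (0.947 to 0.952), and in the other windows 0.935 times (0.934 to 0.936). Single high-input windows ranged from 0.795 to 1.20, with a median of 0.946. The windows were also put into 6 classes of relative input, cut at 0.75, midway between the median window and the threshold, and at 1.5, 2 and 3, and the median relative inputs of the classes were 0.585, 1.01, 1.35, 1.61, 2.28 and 3.7. From the lowest class to the highest the ratio was 0.924, 0.930, 0.962, 0.966, 0.916 and 0.909. The ratio was lowest in the class with the highest input, but all 18 windows of that class, with their 150 peaks, lay on 8q, so its values here and below are those of 1 locus.

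**Figure D2:**
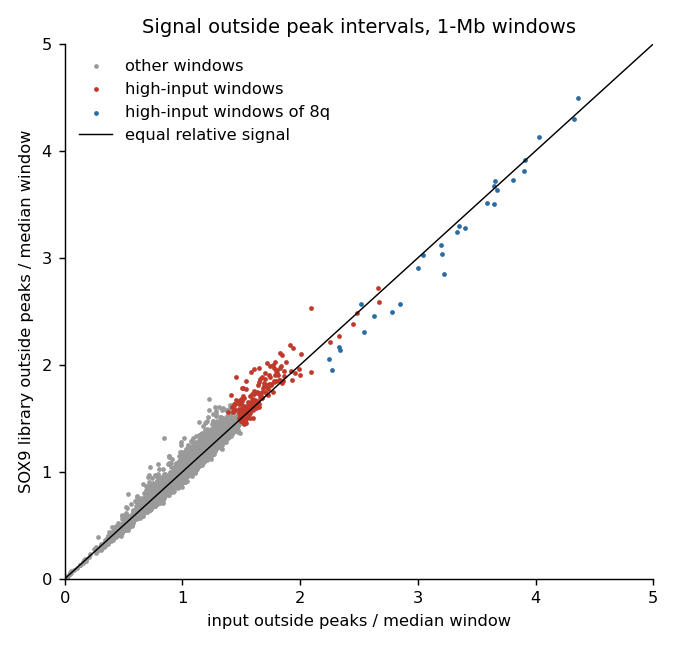
Signal of the SOX9 library outside peaks (y axis) against input outside peaks (x axis), each divided by its median window, for 1-Mb windows with at least 500 kb of known bases. High-input windows of 8q (blue) and elsewhere (red) lie along the line of equal relative signal.

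The members held more SOX9 tags than the other autosomal peaks, but stood less far above their local input. The median member had 66 tags (64 to 68, quartiles 43 and 100), against 43 (42 to 43, quartiles 29 and 63) in the other 14573 peaks, which is 1.53 times as many. At least 100 tags were reached by 735 of 2906 members (25.3%), where 11% of all autosomal peaks did so. The fold enrichment of MACS, which divides by the local input, had a median of 8.98 (8.82 to 9.13) in members and 10.71 (10.63 to 10.71) elsewhere. A fold enrichment of at least 10 was reached by 1135 members (39.1%), beside 53.8% of all autosomal peaks. At its highest bin the SOX9 signal reached a median of 25 extended tags in members and 19 elsewhere, and the input reached 7 and 5. In 1368 members (47.1%) the former was at least 4 times the latter, beside 56.8% of all autosomal peaks. The input enters the fold enrichment and this ratio, and it chose the members, so these shares describe the rule. The members' intervals were also longer, with a median of 976 bp against 771 bp.

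The tags per peak followed the class of relative input in steps. From the lowest class to the highest the median was 34, 42, 50, 62, 82 and 144 tags. The fold enrichment ran the other way, through medians of 12.5, 10.7, 9.89, 9.10, 8.57 and 7.22. Peaks were called against the local input, so a peak in a deeper window needs more tags to be called. The fewest tags of a peak were 12 in each class below 2, 18 from 2 to 3 and 32 at 3 and over. The part of the peak calling in these steps was not tested. Dividing the tags of each peak by the relative input of its window gave medians of 54.5, 40.1, 36.5, 36.9, 38.6 and 36.1, and the intervals of the 4 highest classes overlapped. The interval of the highest class, 30.3 to 41.4 over 150 peaks, was the widest. For all members the median of tags divided by relative input was 37 (36 to 38), and for the other peaks 40.6 (40.1 to 41.0).

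**Figure D3:**
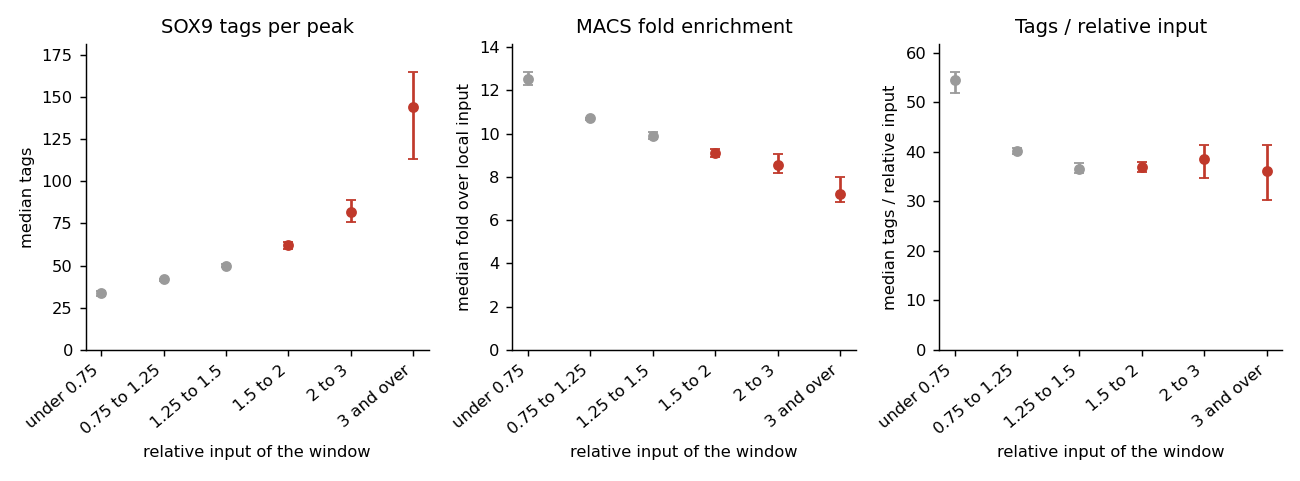
Median SOX9 tags per peak, median MACS fold enrichment and median tags divided by relative input (y axes) for peaks in 6 classes of relative input (x axes), with 95% intervals of the median; members in red. Tags climb from 34 to 144 while fold enrichment declines from 12.5 to 7.22.

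The share of members among the strongest peaks depended on the measure. Ranked by tags, members were 6 of the first 10 autosomal peaks, 38 of the first 50, 60 of the first 100 and 412 of the first 1000, against 16.6% of all. Ranked by the highest SOX9 signal, they were 4 of 10, 23 of 50, 39 of 100 and 291 of 1000. Ranked by tags divided by relative input, they were 0 of 10, 3 of 50, 8 of 100 and 124 of 1000, and by fold enrichment 0, 3, 9 and 115. Both of these measures divide by the input, which chose the members, so their ranks describe the rule. The peak of CASC19 had rank 2 by tags and rank 315 by tags divided by relative input, and MYC had ranks 11 and 735. AP2A1 had ranks 5 and 39, and PRDM10 had ranks 7 and 43. The members with the highest fold enrichment were promoter peaks at RNF13 (72.5), IQCH (70.1), ANP32A (68.8), RPN2 (65.0), EED (63.9), CA11 (58.5), BMAL1 (58.5), STIP1 (57.8), PRDM10 (56.9) and NDUFV2-AS1 (54.9), and none of them lay on 8q.

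Around the summit the excess was present in both libraries. The mean SOX9 signal at the summit was 30.9 extended tags per bin in members, 25.1 in peaks of the class next below the threshold and 22.9 in all non-member autosomal peaks, and the mean input there was 4.47, 3.32 and 2.84. The non-member peaks include the class next below the threshold. From 1500 to 2000 bp away the SOX9 library had 2.42, 1.79 and 1.44 and the input 1.78, 1.33 and 1.08. In the 8q block the means were 44.5 against 8.23 at the summit and 3.91 against 3.44 at that distance. The input itself was thus higher at the summits than beside them in every group.

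**Figure D4:**
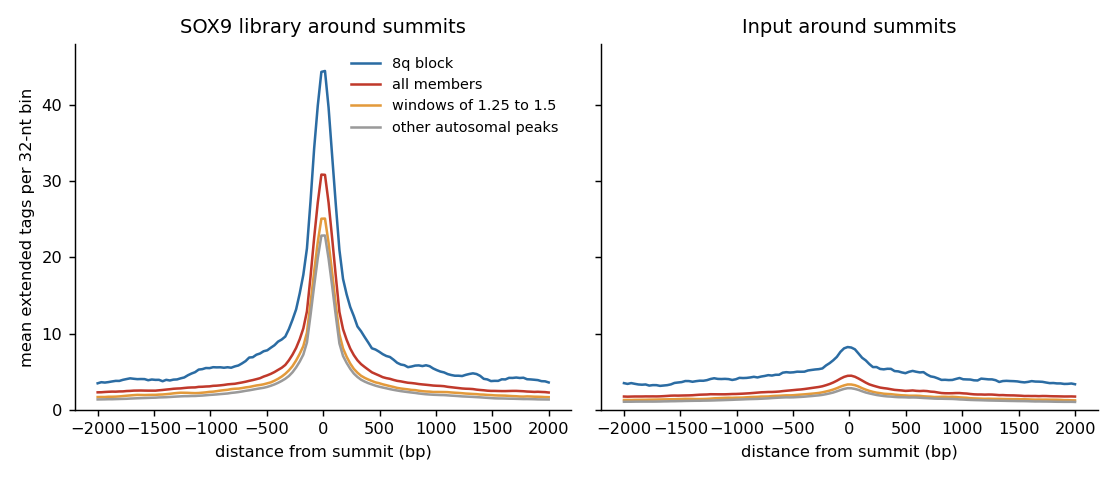
Mean signal in extended tags per 32-nt bin (y axes) of the SOX9 library and the input around summits (x axes, distance in bp) for the 8q block, all members, peaks of the class next below the threshold and all other autosomal peaks. The other autosomal peaks are all non-members and include that class. The 8q block reaches 44.5 at the summit in the SOX9 library and 8.23 in the input.

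Comparisons within a chromosome gave the same order of tags and the opposite order of fold enrichment. The 8q block, the rest of 8q and 8p had median relative inputs of 3.36, 1.01 and 0.366. Their peaks had medians of 137, 44.5 and 22 tags and fold enrichments of 7.36, 9.75 and 15.7, and tags divided by relative input were 36.5, 39 and 47.9. On 20q, with a relative input of 1.65, the median was 69 tags and the fold enrichment 8.86, against 44 tags and 10.8 on 20p, with a relative input of 0.972. Within 13q the high-input windows had a median of 70 tags and the others 46. Within 19q the medians were 80.5 tags (76 to 88) and 68 (60 to 73), at relative inputs of 1.77 and 1.16.

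The high-input windows also held more peaks. They had 13.2 peaks per Mb (12.7 to 13.7), against 5.91 (5.82 to 6.01) in the other windows, which is 2.24 times as many. The density was not highest where the input was highest. From the lowest class of relative input to the highest it was 2.85, 5.89, 11.5, 13.9, 12.3 and 8.33 per Mb. The class next below the threshold, with 11.5, holds no member, so a density above that of most windows was not particular to the members. Windows of 1.4 to 1.5 had 11.5 per Mb (10.8 to 12.2) and windows of 1.5 to 1.6 had 11.2 (10.5 to 12). Within 13q the values were 9.95 and 2.86 per Mb, within 19q 29.8 and 10.2, and on 20q and 20p 12.7 and 6.09. In the 8q block there were 6.76 per Mb, against 4.61 in the rest of 8q and 2.31 on 8p. The high-input windows held 9.65 protein-coding genes per Mb and a median GC content of 42.0%, against 6.94 genes and 40.1% elsewhere, and the part of these in the peak number was not tested. Per protein-coding gene the excess was 1.61 times. Of the 2121 protein-coding genes that start in high-input windows, 1179 (55.6%, 53.5% to 57.7%) had a peak summit within 1 kb of a protein-coding transcript start. Elsewhere the share was 42.8% of 17101 genes, and in the class next below the threshold it was 50.6% (48.7% to 52.4%). In the 8q block it was 51 of 82 genes, in the rest of 8q 48.8% and on 8p 16.9%.

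By position, the members were as often promoter peaks as not. Within 1 kb of an annotated start lay 1418 of them (48.8%, 47.0% to 50.6%), against 55.1% (54.2% to 55.9%) of the other autosomal peaks. The share was 50.7% from 1.5 to 2, 42.8% from 2 to 3 and 45 of 150 peaks at 3 and over. Between blocks it ranged widely. It was 8.70% in the block of 46 to 48 Mb of chromosome 7, which lies at TNS3 and PKD1L1, 22.4% in the KLF5 block of 13q, 64.8% and 65.2% in the 2 blocks of 19q and 78.3% in the block of 63 to 67 Mb of chromosome 11. Members near a start had a median of 80 tags and those farther away 53, against 52 and 34 in the other peaks, so both groups of members held more tags than the other peaks at the same kind of position.

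**Figure D5:**
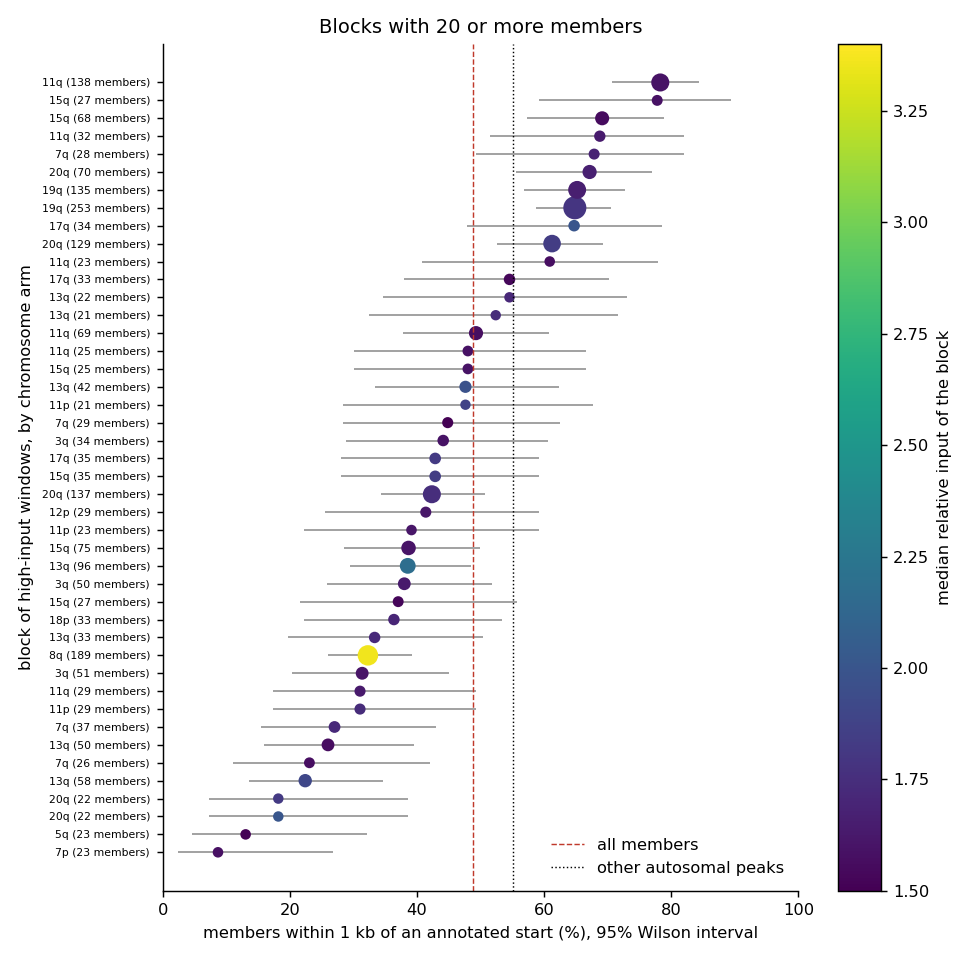
Share of members within 1 kb of an annotated start (x axis, percent with 95% Wilson intervals) for the 44 blocks with 20 or more members (y axis, by chromosome arm), with point size by number of members and colour by median relative input. The shares run from 8.70% to 78.3%, and the 8q block stands at 32.3%.

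The motifs near the summit took similar shares of the members and of the other peaks. CCAAT or Motif 2 lay within 100 bp of the summit in 40.4% of members (38.6% to 42.2%) and in 41.7% of the others (40.9% to 42.5%). Over all members, each of these motifs was nearly as frequent in the flanks 1 kb away. CCAAT lay near 24.8% of member summits and in 22.5% of flanks, and Motif 2 near 20.7% and in 20.1%. Near a start, Motif 1 was present in 187 of 1418 members (13.2%, 11.5% to 15.0%), where its share of the flanks at 1 kb was 1.59%, and in 14.2% of the other peaks. Motif 2 was there in 9.24%, below its flanks at 17.2%. Farther from a start, Motif 2 was present in 471 of 1488 members (31.7%, 29.3% to 34.1%), against 22.9% of flanks and 34.8% of the other peaks, and Motif 1 in 2.82%. CCGGAA was found at 21.0% of members near a start (flanks 4.34%), and TGACTCA at 18.8% of those farther away (flanks 4.34%), beside 24.0% and 21.3% of the other peaks. In the 8q block, Motif 2 was present in 31.2% of members and TGACTCA in 20.1%, against 21.2% and 15.0% in the rest of 8q, where more of the peaks lay near a start. A match is a description of the sequence and does not show that a factor was bound.

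Genes known from gained regions or as oncogenes of colorectal cancer were looked up in a fixed list of 36, of which 35 were found in the annotation. Of these, 21 lay in a high-input window, 20 of the 21 had a SOX9 peak in the gene or within 10 kb, and 16 had one within 1 kb of a start. The list was chosen with earlier results of these data known, and its counts are a description. By the same rules, 76% of all 2121 protein-coding genes of high-input windows had a summit in the gene or within 10 kb, and 57.9% had one within 1 kb of any of their starts, beside 17 and 13 of the 18 listed protein-coding genes there. Of the 14 genes in other windows, 7 had one within 1 kb of a start, beside 44.6% of all protein-coding genes elsewhere. FLT3, a receptor kinase gene at 13q, was the only one of the 21 without a peak in reach. Among regulators of transcription, KLF5, a Krüppel-like factor of the crypt, had a promoter peak with 174 tags and a signal of 98 against 8, while CDX2 and HNF4A, factors of intestinal identity, had no peak at a start but members of up to 221 and 63 tags elsewhere in reach. E2F1 had a promoter peak of 119 tags. Of the cell cycle and mitosis genes, UBE2C, a ubiquitin-conjugating enzyme of the anaphase-promoting complex, had 272 tags and a signal of 183 against 13, and TPX2, a spindle assembly factor, had 163 tags. CDK6 and CDK8 had promoter peaks of 111 and 101 tags. Of the signalling and survival genes, SRC had 230 tags, BCL2L1, an inhibitor of apoptosis, 224, IRS2, an adaptor of the insulin receptor, 146, and the receptor kinase gene MET 110. The smallest promoter peaks of the list in high-input windows were those of TERC (61 tags) and TOP1 (59 tags). PVT1, the noncoding RNA gene next to MYC, had 247 tags and a signal of 33 against 15. At IGF2 and POU5F1B no summit lay within 1 kb of a start. Several list genes lay just below the threshold, TERT at a relative input of 1.49, CCND1 at 1.46 and ERBB2 at 1.33, and AURKA lay at 1.20 between the blocks of 20q.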

How the data were processed

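One SOX9 ChIP library and 1 input library of HT-29 cells were analysed. Per the labels and methods, the authors aligned 50-nt reads to hg19 with BWA, kept unique alignments, removed duplicates, downsampled the input to the ChIP and called peaks with MACS (p-value cut-off 1e-07, model fold 16, band width 150). The deposited peaks carry a count of SOX9 tags, a score that is a scaled −log10 p-value of MACS, the fold enrichment as a ratio to local input, and an FDR in percent. The signal maps deposited by the authors give tags extended to 150 bp per 32-nt bin, without further normalization, and a tag adds 5 bins.

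The members and lists were chosen with earlier results of these data known. Windows of 1 Mb were summed as described, and peaks were split at 1.5 times the median. Signal outside peaks leaves out every deposited interval. Starts and genes are from GENCODE release 44 lifted to hg19, with distances measured from the summit. Both strands of the 100 bp to each side of a summit were read for motifs, and the flanks were the stretches of that length 1 kb away. Genes named are those nearest to the 20 members with most tags, to the 3 strongest members of each block with at least 20 members and to the 10 of highest fold enrichment, and those of the list in high-input windows. Genes named for their place at the threshold, PKD1L1 and CALM3 were added. Some items that the rule names are not reported here. The search for CCGGAA and TGACTCA, tags divided by relative input, comparisons within chromosomes, the split at 0.75 and the results without chromosome 8 were added after seeing the data. Shares have Wilson intervals, counts exact Poisson intervals, ratios of counts exact binomial ones and medians order-statistic ones (95%). No test was run. Procedures were tested on simulated data. The median window held 4274 input tags, so that counting error of a window is small beside the threshold. Python 3.11.15, NumPy 2.4.6, pandas 2.3.3, SciPy 1.17.1 and matplotlib 3.10.9 were used.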

Additional observations from a re-analysis of the deposited data

How the results depend on the processing

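The 7 results were recomputed under 8 to 10 alternatives each, 63 in all. In 33 the value stayed within the interval of the value reported (for the number of members, within 1.5 times), in 30 it moved further, and in 0 did a ratio change sides of 1. At a threshold of 2 times the median, and at a lower one midway between the median and the threshold used, there were 468 and 6451 members, the peaks per Mb were 1.65 and 2.39 times those elsewhere, the median tags 2.13 and 1.4 times, the fold enrichment 0.788 and 0.865 times, the SOX9 signal outside peaks 0.913 and 0.956 times the input, and at 2 times the median alone 38.7% of members lay within 1 kb of a start and 43.2% held CCAAT or Motif 2. With windows shifted by 500 kb, the density ratio was 2.36 and the signal ratio outside peaks 0.954, and with windows of 500 kb 2.63 and 0.961. Without chromosome 11 they were 2.13 and 0.946, and without the high-input windows of chromosome 8, an alternative chosen after seeing the data, 2.40 and 0.965. With peaks of a MACS score of at least 100, the density ratio was 2.37, the share near a start 53.8% and the motif share 42.2%. Per protein-coding gene the density ratio was 1.61. The highest SOX9 signal in place of tags gave 1.32, and its ratio to the highest input in place of fold enrichment 0.877. With 1 kb either side of peaks left out the signal ratio was 0.942. The share near a start was 58.4% within 3 kb and 40.2% for protein-coding transcripts, and the motif share within 25 bp was 16%. No paired analysis was possible because each group has 1 library. With 1 library of each kind, variation between experiments is unknown, and GC content, gene density and copy number cannot be told apart in the input.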

Other observations

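At the other end of the input scale, 8p had the lowest median relative input of any arm, 0.366, followed by 17p and 21q (0.603 and 0.605), 18q (0.620), 3p (0.622), 19p (0.641) and 14q (0.666). These arms held no member. Their peaks had low tag counts and high fold enrichments, with medians of 22 tags and 15.7 on 8p, 32 and 12.9 on 3p, and 36 and 13.4 on 19p, although 19p had 15.4 peaks per Mb. The peaks in windows below 0.75 numbered 1577, and 63.9% of them lay within 1 kb of a start (61.5% to 66.2%). On 22q, where the median was 0.684, a pair of windows stood above the threshold at 1.51 and 1.71 and held 34 members, and on 18p 3 of 15 windows did.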
